A study of Homo sapiens with 10 samples.

Results

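Replication-dependent histone genes encode the core histones H2A, H2B, H3 and H4 and the linker histone H1. The set holds the RefSeq protein-coding genes on GRCh38 named H1-1 to H1-6 or whose symbol starts with H2AC, H2BC, H3C or H4C and a number. It numbers 70 of 19974 protein-coding genes, with 6 genes for H1, 17 for H2A, 19 for H2B, 13 for H3 and 15 for H4. By position 55 lie on chromosome 6 and 13 on chromosome 1, and H4C16 on chromosome 12 and H2BC12L on chromosome 21 stand alone.

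Chromatin immunoprecipitation and sequencing (ChIP-seq) peak lists came from Kelly, an established neuroblastoma cell line of the adrenergic type with amplified MYCN. There were 10 libraries in 5 groups of 2. Untreated Kelly cells served for RCOR1 and RCOR3, each precipitated with an antibody against the protein itself. RCOR2 was pulled down through its FLAG tag (3xF in the labels) from cells given 2 µg/mL doxycycline, and the uninduced FLAG libraries came from the same kind of cells without the drug. LSD1 (gene symbol KDM1A) came from a Kelly derivative with a doxycycline-inducible shRNA against RUNX1T1, left untreated. Every library carries the time label 48 h. The labels do not say whether replicates are separate cultures, whether the engineered cells are single clones, or how much tagged RCOR2 is made next to the cell's own. Differences between the proteins therefore also hold differences between antibodies and cells.

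As background, these genes are transcribed mainly while DNA is copied, lack introns in their canonical form, and their mRNAs end in a conserved stem-loop in place of a poly(A) tail. NPAT, a coactivator phosphorylated by cyclin E and CDK2, gathers with them in nuclear bodies. LSD1 removes methyl groups from histone H3, and the RCOR (CoREST) proteins tie it to histone deacetylases and to nucleosomes.

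The lists hold between 10253 and 75643 peaks per library, with median fold enrichments between 4.77 and 6.61. A gene was counted for a protein when a consensus region, formed by overlapping peaks of both libraries, came within 2 kb of either gene end. Fold enrichment is the peak caller's ratio over local background, which is not comparable between antibodies, so levels are compared within a library. Histone genes are short (median length 494 bp, against 24170.5 bp for all genes) and crowded. Their windows hold less sequence than those of longer genes, and neighbours often share a region, so the genes are not independent observations. A value at a gene is that of its strongest peak in a library, and the strongest peaks of both replicates need not be the same site. They fell in the same region at 28 of 43 genes for RCOR1, 49 of 57 for RCOR2, 25 of 36 for RCOR3, 11 of 20 for LSD1 and 9 of 20 for uninduced FLAG. Where they did not, values given below for single genes are those of a common region or are said to differ in place.

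The upstream sequences show what the genes of a histone type have in common. RefSeq (GRCh38.p14) promoters were matched for 64 of the 70 genes, and the 250 bases before the start were searched on both strands for 5 motifs, none of which contains another. Of these CCAAT is the box bound by NF-Y, and TATAAA is the usual form of the TATA box. POU2F1 reads the octamer ATTTGCAT. The H1 box is given by AAACACA, and the core of the H4 promoter site bound by HINFP by GGTCCG. The letters of the H1 box were found in all 6 H1 promoters, in none of the other 58 and in 5.05% of all 15813 promoters matched. The H4 core was found in 12 of 13 H4 promoters and in 15.3% of all. The octamer was found in 14 of 18 H2B and 11 of 16 H2A promoters, many of which share it between a divergent pair, and in 2.16% of all. CCAAT was found in 54 of 64 and TATAAA in 43 of 64 histone promoters, against 40.2% and 11.9% of all.

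These 9 upstream sequences are shown because they pair, for H1, H2B, H3 and H4, a gene that held corepressor peaks with one that held none in any library. H4C5, H1-2, H2BC8 and H3C14 held peaks, and H4C6, H4C7, H1-1, H2BC1 and H3C3 did not. Capitals mark the motifs above on either strand, and each run ends at the base before the start.
H4C5: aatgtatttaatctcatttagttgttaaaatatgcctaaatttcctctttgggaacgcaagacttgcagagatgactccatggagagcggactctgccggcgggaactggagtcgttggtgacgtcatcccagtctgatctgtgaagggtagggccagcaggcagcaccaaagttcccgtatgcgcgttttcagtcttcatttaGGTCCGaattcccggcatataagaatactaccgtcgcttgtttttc
H4C6: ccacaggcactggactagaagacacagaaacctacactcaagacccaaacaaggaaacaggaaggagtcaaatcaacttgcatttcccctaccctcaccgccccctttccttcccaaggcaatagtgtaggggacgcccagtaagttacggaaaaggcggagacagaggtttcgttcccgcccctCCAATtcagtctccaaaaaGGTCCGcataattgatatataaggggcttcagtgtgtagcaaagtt
H4C7: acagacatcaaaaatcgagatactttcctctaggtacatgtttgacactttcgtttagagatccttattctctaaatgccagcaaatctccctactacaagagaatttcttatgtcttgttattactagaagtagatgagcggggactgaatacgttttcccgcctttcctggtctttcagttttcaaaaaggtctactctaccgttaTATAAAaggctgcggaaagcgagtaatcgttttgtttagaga
H1-2: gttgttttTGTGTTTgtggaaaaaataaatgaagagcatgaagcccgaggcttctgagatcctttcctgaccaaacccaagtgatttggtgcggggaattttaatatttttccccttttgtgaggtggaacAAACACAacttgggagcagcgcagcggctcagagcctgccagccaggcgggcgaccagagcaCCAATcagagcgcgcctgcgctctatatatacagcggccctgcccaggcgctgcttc
H1-1: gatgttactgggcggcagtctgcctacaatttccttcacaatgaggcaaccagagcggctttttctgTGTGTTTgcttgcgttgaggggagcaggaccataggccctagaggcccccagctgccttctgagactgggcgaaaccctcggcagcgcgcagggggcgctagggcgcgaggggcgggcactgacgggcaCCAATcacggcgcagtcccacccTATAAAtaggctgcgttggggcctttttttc
H2BC8: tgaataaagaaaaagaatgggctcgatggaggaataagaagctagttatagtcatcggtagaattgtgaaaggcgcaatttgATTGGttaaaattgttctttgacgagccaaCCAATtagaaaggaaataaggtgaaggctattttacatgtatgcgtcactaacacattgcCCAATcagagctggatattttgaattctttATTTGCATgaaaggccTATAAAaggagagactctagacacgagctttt
H2BC1: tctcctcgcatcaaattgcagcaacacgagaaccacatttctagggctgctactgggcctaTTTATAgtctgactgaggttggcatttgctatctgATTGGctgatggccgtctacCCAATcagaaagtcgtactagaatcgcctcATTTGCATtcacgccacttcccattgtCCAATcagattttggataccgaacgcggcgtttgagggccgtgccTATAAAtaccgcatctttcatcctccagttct
H3C14: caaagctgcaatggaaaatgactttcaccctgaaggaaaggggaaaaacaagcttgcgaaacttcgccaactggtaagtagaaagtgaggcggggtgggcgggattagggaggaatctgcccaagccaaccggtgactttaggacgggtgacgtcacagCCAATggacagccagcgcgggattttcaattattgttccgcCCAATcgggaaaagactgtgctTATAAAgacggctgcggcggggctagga
H3C3: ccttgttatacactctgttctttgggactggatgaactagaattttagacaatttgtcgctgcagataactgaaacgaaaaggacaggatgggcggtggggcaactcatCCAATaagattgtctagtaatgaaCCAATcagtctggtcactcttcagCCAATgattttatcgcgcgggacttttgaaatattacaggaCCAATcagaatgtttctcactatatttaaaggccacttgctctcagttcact

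Their positions are chr6:26204360-26204609 (plus strand) for H4C5, chr6:26240143-26240392 (plus strand) for H4C6 and chr6:26246997-26247246 (minus strand) for H4C7. They are chr6:26056471-26056720 (minus strand) for H1-2, chr6:26017788-26018037 (minus strand) for H1-1, chr6:26216689-26216938 (minus strand) for H2BC8 and chr6:25726527-25726776 (plus strand) for H2BC1. They are chr1:149841209-149841458 (minus strand) for H3C14 and chr6:26045134-26045383 (plus strand) for H3C3. Several genes without peaks carry the letters of their type as well. H1-6 has AAACACA on its own strand at -105, within the range of -105 to -119 that it shares with H1-2, H1-3, H1-4 and H1-5. H1-1 has these letters on the opposite strand alone, at -183. H4C6 has GGTCCG and H2BC1 the octamer, while H4C7 lacks GGTCCG. Of the 8 genes without a peak that have a promoter entry, 7 have CCAAT and 5 TATAAA.

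Histone promoters were also poor in CpG. They held a median of 9 CpG (range 3 to 22) and 43.2% G and C in 250 bases, against 19 CpG and 64.0% for all genes. The median was 9 CpG both for genes with an RCOR2 region and for genes without, and 8.5 and 9 for genes with and without an LSD1 region.

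RCOR1 and RCOR3 occupied histone genes at higher shares than genes at large. RCOR1 had a region at 44 of 70 histone genes (62.9%), against 30.5% of all genes, and RCOR3 at 30 of 70 (42.9%), against 10.6%. The single libraries gave the same order. RCOR3 replicates 1 and 2 held a peak at 41 and 43 histone genes (58.6% and 61.4%; mean 60.0% ± 2.02, SD, n = 2), against 20.9% and 25.9% of all genes. RCOR1 replicates held one at 58 and 43 (82.9% and 61.4%; 72.1% ± 15.2, SD, n = 2), against 56.8% and 34.4%. The 2 RCOR1 libraries thus differed from each other almost as much as histone genes differed from all genes, but in each library the histone share was the higher one. The counts depend on how strictly the libraries must match: with 50% reciprocal overlap of their peaks, 9 histone genes kept RCOR1 (12.9%, against 5.63% of all genes) and 14 of 70 kept RCOR3, against 6.00% of all genes.

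LSD1 was found at 20 of 70 histone genes (28.6%), against 4.17% of all genes. The libraries held a peak at 41.4% and 32.9% of histone genes (37.1% ± 6.06, SD, n = 2), against 9.95% and 5.53% of all genes. Tagged RCOR2 had a region at 56 of 70 (80.0%), but 70.8% of all genes have one, so this share lies near the background. Both induced libraries held a peak at 59 of 70 genes (84.3%), against 75.3% and 75.5%. The 888 protein-coding genes no longer than 1500 bp include 62 of the histone genes. With these included, the shares in this class were 30.9% for RCOR2, 12.2% for RCOR1, 5.29% for RCOR3 and 2.48% for LSD1. They are therefore not the shares of the other short genes.

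The uninduced FLAG control moved with these counts. It had a region at 19 of 70 histone genes (27.1%), against 5.77% of all genes, and its libraries held a peak at 31.4% and 57.1%, against 24.6% and 14.6%. When regions with an uninduced peak were left out, 34 of 70 histone genes (48.6%) kept an RCOR2 region, against 48.9% of all genes. RCOR1 then stood at 27 genes (38.6%, against 14.8%), while RCOR3 had 18 (25.7%, against 4.89%). LSD1 still stood at 20 genes (28.6%, against 3.59%), and no LSD1 region at a histone gene overlapped an uninduced consensus region. Peaks of a single uninduced library could still overlap one. At H4C8 an uninduced peak of replicate 2 (4.59) had its summit within an LSD1 region, and H4C8 has a further LSD1 region. What part of the FLAG signal at histone genes is background was not tested. No test between groups was made, because an exact permutation test of 2 against 2 libraries reaches 0.333 at the lowest (two-sided).

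**Figure D1:**
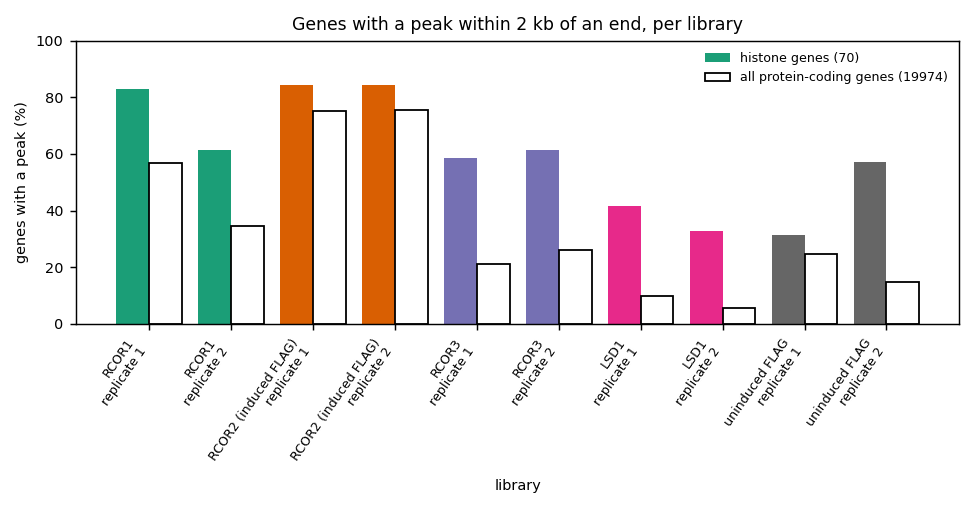
Share of genes (%) with a peak within 2 kb of an end in each of the 10 libraries, for the 70 histone genes (filled bars) and all 19974 protein-coding genes (open bars). The filled bar is the higher one in every library, by the least in uninduced FLAG replicate 1 (31.4% against 24.6%).

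The number of proteins per gene shows how the counts combine. All 4 proteins had a region at 10 histone genes (14.3%), against 1.62% of all genes, and 23 genes had 3 of them (32.9%, against 8.90%). The most frequent set was RCOR1, RCOR2 and RCOR3 without LSD1, found at 18 genes (25.7%, against 7.56%). RCOR2 alone was found at 6 genes (8.57%), against 39.1% of all genes. The genes with all 4 were H1-2, H1-4, H2BC5, H4C5, H2BC8, H2AC8 and H4C8 on chromosome 6 and H2BC21, H2AC20 and H2AC21 on chromosome 1. H3C6 was the single histone gene with LSD1 and none of the other 3.

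A group of 9 genes held no peak in any of the 10 libraries, or 12.9% of the set, against 19.3% of all genes. It consists of H1-1, H1-6, H2AC1, H2BC1, H2BC3, H3C3, H4C6, H4C7 and H2BC12L. H1-6, H2AC1 and H2BC1 encode histones known from the testis. A further 4 genes, H2BC6, H1-3, H3C8 and H2BC10, held peaks in single libraries or at different places in the libraries of a protein. At H1-3 both induced RCOR2 libraries had a weak peak (4.43 and 5.18) without overlap.

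**Figure D2:**
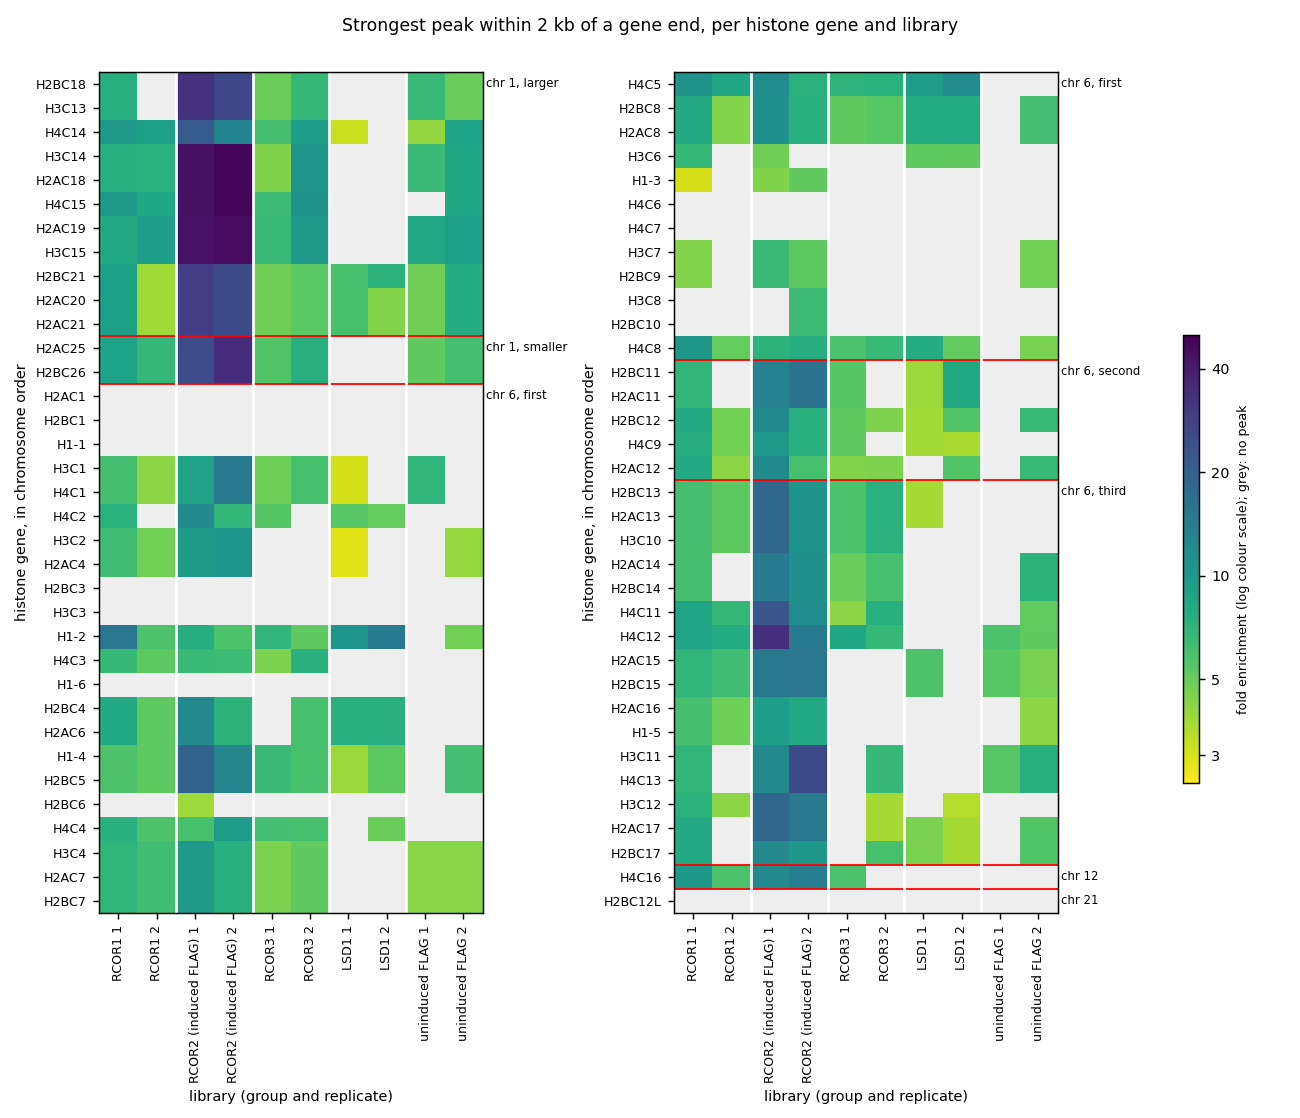
Fold enrichment of the strongest peak within 2 kb of either gene end (log colour scale, grey for no peak) for the 70 histone genes in chromosome order, in 10 libraries. Red lines part the clusters. Chromosome 1 genes hold the darkest cells, under induced RCOR2 (up to 43.5 and 47.2), and 9 rows are grey throughout.

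Genes were placed in 5 clusters, joining neighbours within 300 kb. The larger chromosome 1 cluster (chr1:149782689-149887965) holds 11 genes and the smaller one (chr1:228457364-228458558) the pair H2AC25 and H2BC26. On chromosome 6 the first cluster (chr6:25726063-26285534) holds 34 genes, the second (chr6:27132316-27147562) 5 and the third (chr6:27807479-27893891) 16.

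The chromosome 1 genes held the highest tagged RCOR2 values of the set, and each of them had RCOR3 as well. All 13 held RCOR2 and RCOR3 regions, 11 held RCOR1 and 3 held LSD1. Over all genes the shares are 70.8% for RCOR2, 10.6% for RCOR3, 30.5% for RCOR1 and 4.17% for LSD1. The 3 genes with LSD1 make up 27.3% of the larger cluster. In the larger cluster, RCOR2 fold enrichment lay between 21.5 and 43.5 in replicate 1 and between 12.9 and 47.2 in replicate 2. In the first chromosome 6 cluster it lay between 3.87 and 19.4 and between 5.18 and 14.9. By the strongest peak per gene, the ranges did not meet in replicate 1 and met in replicate 2 through H4C14, at 12.9. H4C15 entered these ranges through a region at its far end. The region at the start of H4C15 stood at 22.2 and 11.6. Its replicate 2 value also lies within the range of the first chromosome 6 cluster. The third chromosome 6 cluster, at 9.40 to 33.2 and 7.97 to 25.5, overlapped the larger chromosome 1 cluster in both replicates.

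H3C14 and H2AC18, an H3 and an H2A gene side by side, shared the strongest region, which also reaches the far end of H4C15. Its RCOR2 values were 43.5 and 47.2, those of RCOR3 4.42 and 10.4 and those of RCOR1 7.58 and 7.37, and neither LSD1 library had a peak. The RCOR2 summits lay at -1383 bp from the start of H3C14 in replicate 1 (negative is upstream) and at 818 bp in replicate 2, so neither falls in the upstream sequence printed above. H2AC19 and H3C15 followed with 43.3 and 45.2 for RCOR2. The upstream sequences of the copies nearly coincide. H4C14 and H4C15 are identical in 250 of 250 bases, H3C14 and H3C15 in 246 of 246 after a shift of 4 bases, and H2AC18 and H2AC19 in 249 of 249 after a shift of 1. No source used here says how reads that match both copies were treated, so the values of these 6 genes are uncertain.

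The uninduced control was also most frequent here. All 13 chromosome 1 genes had an uninduced FLAG region, against 6 of the 57 histone genes elsewhere. Its fold enrichment in the larger cluster lay between 4.04 and 8.17 in replicate 1 and between 4.95 and 9.18 in replicate 2, below the induced value of every gene with both. Off chromosome 1 the shares were 43 of 57 for RCOR2 (75.4%, against 70.9% of genes off chromosome 1), 33 of 57 for RCOR1 (57.9%, against 29.5%), 17 of 57 for RCOR3 (29.8%, against 9.95%) and 17 of 57 for LSD1 (29.8%, against 3.91%). RCOR3 thus drew 13 of its 30 genes from chromosome 1. The part of background in the chromosome 1 signal was not tested.

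**Figure D3:**
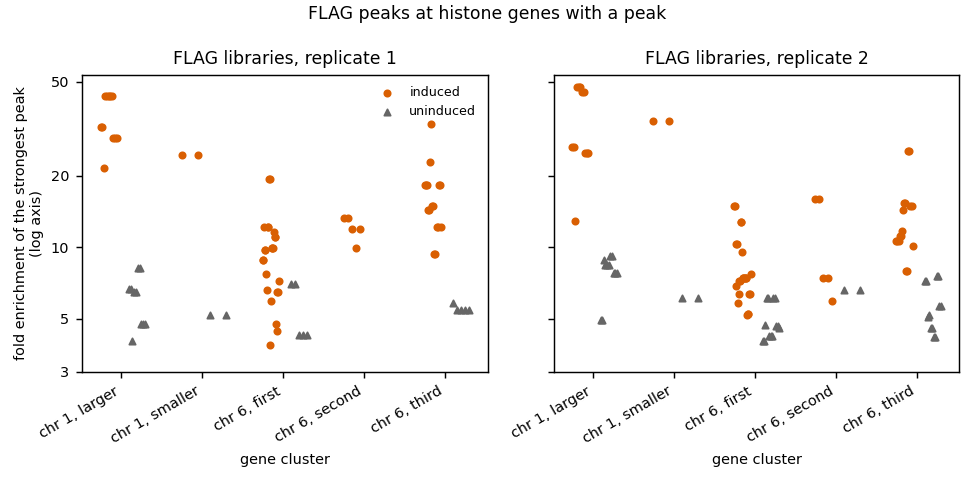
Fold enrichment (log axis) of the strongest FLAG peak at each histone gene that has one, by cluster, for induced (circles) and uninduced (triangles) libraries of replicate 1 (left) and 2 (right). In the larger chromosome 1 cluster the induced values reach 43.5 and 47.2, and the uninduced values stay between 4.04 and 9.18.

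The submitters' lists of RCOR2-high and RCOR2-low regions were spread unevenly over the clusters. An RCOR2-high region lay within 2 kb of 11 histone genes (15.7%, against 31.6% of all genes), which are the 11 genes of the larger chromosome 1 cluster. An RCOR2-low region lay at 54 (77.1%, against 27.2%), including 23 of 34, 5 of 5 and 16 of 16 genes of the 3 chromosome 6 clusters and also 7 of the 11 with an RCOR2-high region. No source used here gives the definition of these lists.

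On chromosome 6 the clusters differed. RCOR2 had a region at 21 of 34 genes of the first cluster (61.8%), at 5 of 5 of the second and at 16 of 16 of the third. Its share over all genes was 70.8%. RCOR3 was found at 12 of 34 (35.3%), 0 of 5 and 5 of 16 (31.25%), against 10.6% of all genes. RCOR1 was found at 18 (52.9%), 3 (60.0%) and 11 (68.75%), against 30.5%. In the second cluster RCOR3 replicate 1 had a peak at each of the 5 genes (4.36 to 5.49) and replicate 2 at 2 (both 4.48), without overlap. LSD1 was found at 11 of 34 (32.4%), 4 of 5 (80.0%) and 2 of 16 (12.5%), against 4.17% of all genes. The genes without any peak all lie in the first cluster, H2BC12L excepted.

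**Figure D4:**
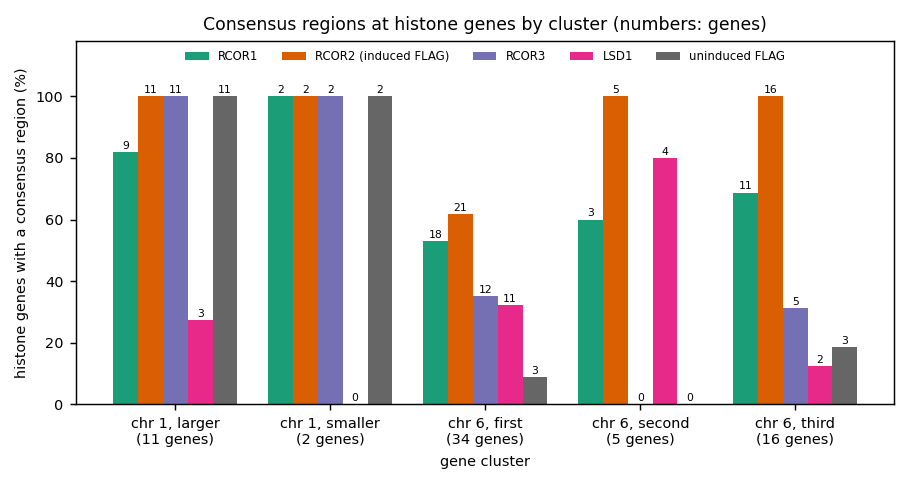
Share of histone genes (%) with a consensus region in each of the 5 clusters, by protein, with the number of genes above each bar. RCOR3 and uninduced FLAG reach 100% in both chromosome 1 clusters, and LSD1 has its highest share in the second chromosome 6 cluster (4 of 5).

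By type, linker histone genes were split. H1-2, H1-4 and H1-5 had RCOR1 and RCOR2 regions, and H1-2 and H1-4 also RCOR3 and LSD1. H1-1, H1-3 and H1-6 had none. H1-2 carried the highest LSD1 values of the set, 10.4 and 14.7, which ranked at percentiles 90.2 and 93.1 of all LSD1 peaks. Its RCOR1 values were 15.4 and 5.78, its RCOR3 values 6.98 and 5.22 and its RCOR2 values 7.74 and 5.85. Among all RCOR1 peaks these ranked at percentiles 97.6 and 53.3, so the RCOR1 replicates differed in rank at this gene. Uninduced FLAG had a peak in replicate 2 (4.72) and none in replicate 1.

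At H1-2 the strongest summits lay at different ends of the gene. The gene is 731 bp long. The LSD1 summits lay 1313 and 1319 bp after the start, past the end of the gene, with RCOR1 at 1336 and 1403 bp and RCOR3 at 1345 and 1376 bp. The strongest RCOR2 summits lay at 13 and 12 bp. A further RCOR2 region overlapped the LSD1 region. At H1-4 the RCOR2 summits lay 103 and 15 bp after the start and the LSD1 summits at 1844 and 1478 bp, next to H2BC5. RCOR2 stood at 19.4 and 12.8 near the start of H1-4, in a region that does not overlap LSD1. Near H2BC5, LSD1 stood at 3.94 and 5.33, RCOR1 at 5.75 and 5.25 and a further RCOR2 region at 4.43 and 6.91. RCOR3 had a region at each place, with 6.46 and 4.48 near the start of H1-4 and 4.36 and 5.97 near H2BC5. H1-5 shared an RCOR2 region (9.40 and 7.97) and an RCOR1 region (3.88 and 4.85) with its neighbour H2AC16. The RCOR2 summits there lay 136 and 219 bp after the start of H2AC16. They lay 2135 and 2052 bp after the start of H1-5. A further RCOR2 region, which covers the start of H1-5, stood at 7.74 and 5.32. H1-5 had no LSD1 peak.

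H4 genes had RCOR1 at 11 of 15 (73.3%), RCOR2 at 13 (86.7%), RCOR3 at 8 (53.3%) and LSD1 at 4 (26.7%). The shares over all genes were 30.5%, 70.8%, 10.6% and 4.17%. H4C5 had all 4 proteins. RCOR1 stood at 10.7 and 8.40, tagged RCOR2 at 11.6 and 7.41, RCOR3 at 7.10 and 7.39 and LSD1 at 9.56 and 11.8, and neither uninduced library had a peak. Here the LSD1 summits (-180 and -213 bp from the start) and the RCOR1 summits (-162 and -200 bp) lay in the upstream sequence printed above. H4C8 had all 4 proteins too, with RCOR1 at 10.2 and 5.05. It had a pair of LSD1 regions, one that overlaps RCOR1 (5.64 and 5.15) and one that overlaps no RCOR region (7.86 and 5.96). H4C2 had RCOR2 (12.2 and 6.91) and an LSD1 region (5.44 and 4.00), and H4C9 LSD1 peaks of 3.80 and 3.66. H4C12 had RCOR2 (33.2 and 14.4), RCOR1 (8.72 and 7.88) and RCOR3 (8.40 and 6.72) and no LSD1, with uninduced FLAG at 5.83 and 5.19. H4C16, the lone gene on chromosome 12, had RCOR1 (10.1 and 5.82) and RCOR2 (12.2 and 13.8), an RCOR3 peak in replicate 1 (5.81) and nothing in the LSD1 and uninduced libraries.

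H2A genes had RCOR1 at 14 of 17 (82.4%), RCOR2 at 16 (94.1%), RCOR3 at 8 (47.1%) and LSD1 at 6 (35.3%). H2B genes had RCOR1 at 9 of 19 (47.4%), RCOR2 at 14 (73.7%), RCOR3 at 7 (36.8%) and LSD1 at 7 (36.8%). The shares over all genes were 30.5%, 70.8%, 10.6% and 4.17%. Since many H2A and H2B genes stand head to head, their values are often 1 peak counted for both. Among genes with a listed start, 11 such H2A and H2B pairs had starts 194 to 248 bp apart. A region reached into the stretch between the starts in 6 of 11 pairs for RCOR2, 5 for RCOR1, 5 for RCOR3, 2 for LSD1 and 1 for uninduced FLAG. No peak of any library had its summit in that stretch, at any of the 11 pairs. The LSD1 pairs were H2AC6 with H2BC4 (3.93 and 3.60 in the region that reaches between the starts) and H2AC8 with H2BC8 (7.87 and 7.22). Each pair had a further LSD1 region outside that stretch, at 7.59 and 7.55 for H2AC6 with H2BC4 and at 4.13 and 7.92 for H2AC8 with H2BC8. At H2AC8 with H2BC8, RCOR2 was 11.1 and 7.44 in a region within H2AC8. RCOR1 was 5.37 and 4.36 in a region past the end of H2AC8. RCOR3 was 5.17 and 5.44, and there was an uninduced peak in replicate 2 (6.13). H2AC11 with H2BC11 had LSD1 at 3.91 and 8.15 and RCOR2 at 13.3 and 15.9. H2AC1 with H2BC1, whose octamer is printed above, had nothing.

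H2BC21, H2AC20 and H2AC21 were the 3 genes with a peak in all 10 libraries. They share an RCOR2 region (28.9 and 24.9). They also share a pair of RCOR1 regions, at 9.08 and 3.97 and at 6.08 and 3.84, and 4 RCOR3 regions. The LSD1 region common to the 3 (5.95 and 4.14) lies beyond the last gene of the cluster, at chr1:149888173-149888821. H2BC21 had a further LSD1 region (4.32 and 7.30) at chr1:149883908-149884186.

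Over all genes the shares are 30.5% for RCOR1, 70.8% for RCOR2, 10.6% for RCOR3 and 4.17% for LSD1. H3 genes had RCOR1 at 7 of 13 (53.8%), RCOR2 at 10 (76.9%), RCOR3 at 5 (38.5%) and LSD1 at 1 (7.69%). That gene, H3C6, had a pair of LSD1 regions, at 5.25 and 4.53 and at 4.70 and 5.17, a peak of RCOR1 replicate 1 (6.71) and of induced RCOR2 replicate 1 (4.77), and no peak in the other libraries. H3C10 shared with H2AC13 and H2BC13 regions of RCOR2 (18.3 and 10.6), RCOR1 (6.04 and 5.25) and RCOR3 (5.81 and 7.39). The RCOR2 summits there lie at -1682 and -1722 bp from the start of H3C10. A further RCOR2 region, which covers the start of H3C10, stood at 11.1 and 9.04. H3C11 and H4C13 shared RCOR2 peaks of 12.2 and 25.5 with uninduced peaks of 5.44 and 7.55. Another RCOR2 region, which covers the start of H4C13, stood at 8.69 and 4.25. Whether the types differ was not tested, since types are spread unevenly over clusters and neighbours share regions.

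The distinct sites are fewer than the genes. The 44 genes with RCOR1 were reached by 31 regions, of which 20 served more than 1 gene. The 30 with RCOR3 were reached by 25 regions, the 56 with RCOR2 by 53 and the 20 with LSD1 by 17. No region served more than 3 histone genes. Of the 17 LSD1 regions, 12 overlapped an RCOR2 region (70.6%, against 19.3% of all LSD1 regions), 9 an RCOR1 region (52.9%, against 41.3%) and 6 an RCOR3 region (35.3%, against 30.7%). All 3 met LSD1 at 5 sites, none of them at 4, and 16 of the 17 lay in RCOR2-low regions. Of the 31 RCOR1 regions 28 overlapped RCOR2 (90.3%, against 67.1% of all RCOR1 regions), and of the 25 RCOR3 regions 24 did (96.0%, against 56.8%). The shares over all regions include regions far from any gene, while those at histone genes lie within 2 kb of a gene end. They are therefore not the shares of regions at gene ends in general, which were not computed.

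Where LSD1 and RCOR2 regions overlapped at histone genes, their summits lay apart. Over 12 such sites the median distance was 167 to 214.5 bp, depending on the pair of libraries, against 79 to 96 bp over all 2455 sites of the kind. RCOR1 summits were closer, with medians of 31 to 70 bp at 9 sites, against 42 to 60 bp overall. RCOR3 summits lay 43.5 to 51.5 bp away at 6 sites, against 52 to 59 bp. These are descriptions of few sites, and the differences were not tested. The distances over all sites likewise include sites far from any gene.

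Relative to the start, the strongest RCOR2 peak of a gene had its summit within 500 bp at 39 of 54 genes in replicate 1 (72.2%) and 34 of 54 in replicate 2 (63.0%). For all genes the shares were 68.2% and 71.5%. LSD1 summits were within 500 bp at 9 of 28 (32.1%) and 7 of 21 genes (33.3%), against 47.3% and 25.5% for all genes with an LSD1 peak. RCOR2 summits lay more often after the start than before it, with 35.2% and 38.9% upstream and medians 141 and 116.5 bp after the start. Over all genes 42.4% and 51.6% lay upstream, with medians of 54 and -8 bp. Uninduced FLAG summits at histone genes had medians of 142 and 128.5 bp, against -15 and 117 bp over all genes. Peaks were taken within 2 kb of either gene end, so the stretch searched reaches farther after the start than before it. At long genes, peaks at the far end lie many kb after the start, and at histone genes they lie near it. Shares and medians of histone genes and of all genes are therefore not like for like.

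**Figure D5:**
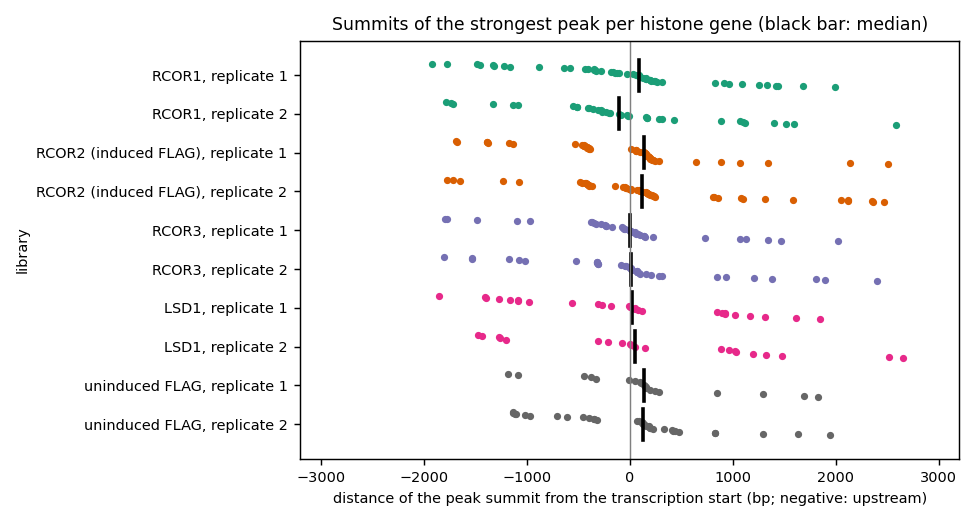
Distance (bp) of the summit of each histone gene's strongest peak from its transcription start (negative upstream), 1 point per gene with a listed start and a peak, by library; black bars are medians. Induced RCOR2 medians lie at 141 and 116.5 bp, LSD1 points are sparse near the start, and at most 2 points per library fall outside the plot.

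Peak strength at the genes that held a peak gave no uniform picture. The median percentile of the strongest peak among all peaks of its library was 85.8 and 70.2 for RCOR2, against 85.9 and 85.1 for all genes with a peak. It was 77.9 and 37.0 for RCOR1 (against 69.5 and 53.3), 55.5 and 62.5 for RCOR3 (against 45.9 and 47.4) and 39.8 and 39.2 for LSD1 (against 42.0 and 53.1). These medians leave out genes without a peak. With the 10253 top peaks of each library, the RCOR2 order turned, to 12 of 70 histone genes (17.1%) against 31.7% of all genes. The other counts were then 15 for RCOR1 (21.4%, against 10.4%), 18 for RCOR3 (25.7%, against 3.69%) and 7 for LSD1 (10.0%, against 2.23%).

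Genes that act on the histone genes or their products were looked at beside them, from lists chosen by function. All 24 genes of histone gene expression and mRNA processing had RCOR2, 12 had RCOR1, 3 RCOR3 and 0 LSD1. NPAT had RCOR2 (12.4 and 9.15), RCOR1 (7.11 and 7.15) and an RCOR3 peak in replicate 1 (4.65). COIL, the Cajal body protein coilin, had RCOR2 (27.7 and 47.6), RCOR1 (9.49 and 5.79) and RCOR3 (4.47 and 9.46). It also had an uninduced FLAG region (5.30 and 5.81). ZNF473, a factor of histone mRNA end processing, had RCOR2 at 17.4 and 15.9 and RCOR1 at 8.35 and 7.27, with an LSD1 peak in replicate 1 (4.27). All 16 histone chaperone genes had RCOR2, 6 had RCOR1, 2 RCOR3 and 0 LSD1, and ASF1B, which hands H3 and H4 on during replication, had its strongest RCOR2 peaks (18.8 and 39.3) at different sites in the replicates.

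Of the 12 genes for replication-independent histone variants, 11 had RCOR2, 5 RCOR1, 1 RCOR3 and 0 LSD1. H2AZ2, which encodes an H2A.Z protein, was the one with RCOR3 (5.71 and 7.64), and H3-3A, an H3.3 gene, had RCOR2 at 31.9 and 69.9. H3-3A also had an uninduced FLAG region, while its strongest uninduced peaks (3.65 and 6.24) did not share a region. H3-5 was the variant gene without RCOR2. Together 51 of these 52 genes had RCOR2, 23 RCOR1, 6 RCOR3, 5 uninduced FLAG and none LSD1, where all genes stand at 70.8%, 30.5%, 10.6%, 5.77% and 4.17%. The median RCOR2 fold enrichment was 16.4 and 33.0 at the 51 with a peak, and 12.2 and 11.2 at the 59 histone genes with one. Over all genes with a peak it was 12.7 and 22.9.

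The 7 other protein-coding genes inside the clusters share the neighbourhood but not the type. TRIM38 and LOC124904411 had RCOR1 and RCOR2 (28.6% for each, against 30.5% and 70.8% of all genes). FCGR1A, HFE, SLC17A2, SLC17A3 and SLC17A4, most of the 7, had no peak in any library, against 19.3% of all genes. None of the 7 had a region of RCOR3, LSD1 or uninduced FLAG. Over all genes the shares were 10.6%, 4.17% and 5.77%, and 7 genes are too few to read the absence as a difference. TRIM38 had RCOR2 at 22.3 and 69.6, above every histone gene of its cluster.

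The window of 2 kb left few genes near its edge. The histone gene farthest from its region but still counted was H2AC17 for RCOR1 (1563 bp) and LSD1 (1212 bp), H2BC9 for RCOR2 (938 bp) and H3C10 for RCOR3 (1497 bp). The nearest genes not counted were H2BC17 for RCOR1 (2289 bp), H1-6 for RCOR2 (2511 bp) and RCOR3 (3355 bp) and H3C12 for LSD1 (3571 bp). At H2AC17 the RCOR1 region was counted although replicate 2 has no peak of its own within the window.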

How the data were processed

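The submitters' processing notes name BWA 0.7.17, MACS2, deepTools and GRCh38, without further settings. Duplicate handling and the control library are not stated in any source used here. Peaks off the autosomes and X were left out. The deposited fold enrichment is a ratio over local background, and the deposited −log10 q-value (the lists also hold a −log10 p-value) ranks peaks; its smallest values lie near 0.05 as a q-value. Some lists (FLAG, and replicate 2 of RCOR1 and of RCOR3) hold peak names with another replicate name; the labels were followed. The RCOR2-high and RCOR2-low lists hold positions without values. Without read counts the depth is unknown, and the number of peaks stands in for it.

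Peaks of both libraries that overlapped by at least 1 bp were merged into consensus regions. The strongest peak is the one with the highest −log10 q. Gene positions came from RefSeq (GRCh38.p14), starts and strand from its promoter table (15813 genes). Counts are given beside the same count over all genes, with no test. H4C16 is counted with the histone genes although its older name H4-16 stood in the variant list. The named genes follow a rule: every H1 gene, every gene with LSD1, with all proteins, with no peak or outside chromosomes 1 and 6, the top 3 per protein and type by the lower percentile of the libraries, and up to 4 per other list; the remaining names fill small counts or complete a pair or cluster, chosen after their values were seen. The members and lists were chosen with earlier results of these data known. Window assignment was tested on simulated regions. Python 3.11.15 and pandas 2.3.3 were used. Alternatives tried were a 500 bp window, the start alone, the nearest gene end, either library's peaks, 50% reciprocal overlap, peaks above the median score, 10253 top peaks, no uninduced peaks, short genes as background, each replicate left out and, added after seeing the data, chromosome 1 left out.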

Additional observations from a re-analysis of the deposited data

How the results depend on the processing

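No paired analysis was possible because no result comes from a test. Of 59 alternative counts, 38 stayed within 1.5 times of the main one. In 57 the share of histone genes was above that of the background. The exceptions were RCOR2 with the top peaks and RCOR2 without uninduced peaks. RCOR2 by nearest gene end was almost level with the background (62.9%, against 62.7%). Of the 59 counts, 11 are of the uninduced FLAG control. With short genes as background only the comparison changes, so those counts equal the main ones by construction, and the 38 include them. By nearest gene end the counts fell to 29 for RCOR1 and 11 for uninduced FLAG. With peaks of either library they were 48 for RCOR3, 32 for LSD1 and 42 for uninduced FLAG. With 50% reciprocal overlap they were 9 for RCOR1 and 14 for RCOR3. With peaks above the median score they were 19 for RCOR1, 15 for RCOR3, 7 for LSD1 and 6 for uninduced FLAG. With the top peaks they were 15 for RCOR1, 12 for RCOR2, 18 for RCOR3 and 7 for LSD1, and without uninduced peaks 27 for RCOR1, 34 for RCOR2 and 18 for RCOR3. Off chromosome 1 they were 17 for RCOR3 and 6 for uninduced FLAG. Stricter settings use fewer peaks or regions, by construction. When each replicate was left out in turn, counts ranged from 43 to 58 for RCOR1, 59 to 59 for RCOR2, 41 to 43 for RCOR3, 23 to 29 for LSD1 and 22 to 40 for uninduced FLAG, where 40 came without uninduced replicate 1.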
